A study of Mus musculus with 14 samples.

Results

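The lysosomal enzymes and membrane proteins described here are 39 genes listed by name, whose messenger RNA was measured in liver of mice with diet-induced obesity. They comprise 10 proteases, 7 glycosidases, 5 sulfatases, 8 lipid enzymes and lipid-handling proteins and 9 membrane proteins. Of the 39, 37 had a probe set assigned to that gene alone among the 12394 genes so covered on the array. Arsb and Cd63 were not analysed here. Each gene was read from its brightest probe set over all 14 arrays, and all 37 passed the filter on low intensity.

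Liver of C57BL/6J mice with diet-induced obesity (DIO) had been compared in 3 groups. There were 5 samples from vehicle-treated mice. A further 4 came from mice given an adenovirus that makes an shRNA (a hairpin RNA that triggers gene silencing) aimed at GFP, a jellyfish protein mice lack, and 5 from mice given the adenovirus with an shRNA aimed at Jnk1. The series is titled as a knockdown restricted to liver, and obesity was common to all 3 groups. The sources used here give no sex, age, virus dose or time after treatment, nor do they say whether each numbered replicate was a separate mouse. The p-values therefore weigh group differences against the spread between samples, which may not be that between mice.

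The lysosome is the acidic compartment in which cells degrade material taken up from outside or delivered by autophagy. Its soluble enzymes are made in the endoplasmic reticulum, tagged with mannose 6-phosphate and sorted from the Golgi, and a proton pump, the V-ATPase, keeps the lumen acidic for them. In liver, hepatocytes and the resident macrophages (Kupffer cells) are both rich in lysosomes. Many lysosomal genes carry a palindromic promoter element, called CLEAR, that is read by the transcription factor TFEB and its relatives.

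Promoter windows of RefSeq genes on mouse assembly GRCm38.p6, running from 250 bases before to 50 bases after each start, were searched on both strands for the core CACGTG, the longer TCACGTGA and the full CLEAR palindrome, which adds 1 base at either end. Each longer motif contains the shorter ones, and all 3 are palindromes. Of the 34 members with a window, including Arsb and Cd63, 12 (35.3%) held CACGTG, against 8.09% of the 27025 genes in the table. TCACGTGA was found in 4 members (11.8%, against 1.12% of all genes), namely Ctsa, Ctsd, Cln3 and Mcoln1. The full motif was found in Cln3, 1 member of 34. These matches describe letters in a window and were not tested as binding sites.

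5 stretches are shown because their genes include the largest fall between the groups and genes that moved in either direction. Capitals mark the motif, and each stretch is written 5′ to 3′ on the strand of its gene. They lie at chr7:142387897-142387948 on the minus strand (Ctsd), chr9:114401008-114401057 on the plus strand (Glb1), chr11:101069999-101070048 on the plus strand (Naglu), chr7:126583329-126583407 on the minus strand (Cln3) and chr8:3500426-3500502 on the plus strand (Mcoln1).
Ctsd: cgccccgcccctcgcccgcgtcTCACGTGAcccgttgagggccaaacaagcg
Glb1: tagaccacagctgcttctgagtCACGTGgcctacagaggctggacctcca
Naglu: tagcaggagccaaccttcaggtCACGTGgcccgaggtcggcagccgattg
Cln3: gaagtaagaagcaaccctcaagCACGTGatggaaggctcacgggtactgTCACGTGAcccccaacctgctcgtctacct
Mcoln1: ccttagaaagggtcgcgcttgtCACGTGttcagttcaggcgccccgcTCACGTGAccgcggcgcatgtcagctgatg

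By class, CACGTG was present in 4 of 8 proteases with a window, 3 of 7 glycosidases, 2 of 4 sulfatases and 3 of 9 membrane proteins. None of the 6 lipid enzymes and lipid-handling genes with a window held it. Among members set against their change between Jnk1 and GFP shRNA, it was present in 2 of 8 that were higher, 3 of 10 that were lower and 7 of 14 that did not pass the test. Genes that carried the motif were found on both sides, with Ctsd and Glb1 higher and Naglu and Mcoln1 lower after Jnk1 shRNA.

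Mapk8, which encodes Jnk1, had a log2 intensity of 6.07 ± 0.18 (SD, n = 5) with Jnk1 shRNA, and of 7.38 ± 0.09 (n = 4) and 7.47 ± 0.14 (n = 5) in the GFP shRNA and vehicle groups. Defining hepatocyte markers were bright in every group, with Alb at 12.42, 12.47 and 12.43 with vehicle, GFP shRNA and Jnk1 shRNA. Some other hepatocyte markers were lower with Jnk1 shRNA, and their counts are given below. The spike-in probe sets, for control RNAs foreign to the mouse, read 8.36 ± 0.32 (SD, log2) on the Jnk1 arrays, against 8.91 ± 0.08 with GFP shRNA (exact permutation p = 0.0159, the smallest a two-sided test gives here) and 8.91 ± 0.10 with vehicle (exact permutation p = 0.00794). Gapdh read by its 3′ probe set over its 5′ one reflects how intact the RNA was. It gave 0.735 ± 0.021 (SD) on the Jnk1 arrays against 0.686 ± 0.020 on the GFP arrays (p = 0.0159 by exact permutation). Against vehicle, at 0.702 ± 0.031 (SD), the exact permutation p was 0.0873. The same ratio for actin was 1.1 ± 0.044 (SD) on the Jnk1 arrays. It was 1.086 ± 0.025 with GFP shRNA (exact permutation p = 0.571) and 1.124 ± 0.05 with vehicle (exact permutation p = 0.46). The 5′ probe set of 18S RNA read 52.0 to 1980 on the Jnk1 arrays, highest on array 2, against 851 to 1570 on the other 9. The part of these measures in the results was not tested. GFP array 2 stood apart, with a deposited median of 58.3 against 45.8 to 47.8 on the other 3. The Jnk1 arrays, at 42.5 to 45.1, all lay below the GFP arrays. Mean deposited medians were 44.2 ± 1.1 (SD) for Jnk1 and 49.6 ± 5.9 for GFP shRNA (exact permutation p = 0.0159). For vehicle the mean was 45.1 ± 3.3 (exact permutation p = 0.659 against Jnk1 shRNA). The spike-in gap lies between the groups compared, so its part in a Jnk1 difference cannot be told apart by design, and member counts with that level added to the model as a covariate, or with the Jnk1 array of highest spike-in alone, are given beside the comparisons.

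With Jnk1 shRNA, set against the GFP shRNA control virus, the lysosomal members moved in both directions. Of the 8 members of the lipid class, 5 were higher (Smpd1, Grn, Lipa, Psap and Asah1, by 0.37 to 0.67 on the log2 scale) and 3 did not pass. Most membrane proteins that passed were lower (Scarb2, Laptm5, Mcoln1, Lamp2 and Laptm4a, by 0.29 to 0.54). The largest change was a fall of Naglu to 44.0% of its GFP level. Arsa, a sulfatase that also acts on a lipid, fell to 57.2%. In limma, at an adjusted p under 0.05 over all 13575 probe sets tested, 22 of 37 members passed (59.5%), 11 higher and 11 lower. Over all probe sets 33.1% passed, 17.3% higher and 15.8% lower, and among genes at least as bright as the lower quartile of the members 46.5% passed. The median difference of the members was -0.00, and that of all probe sets was -0.01. For 23 members (62.2%) the groups did not overlap, against 28.1% of all probe sets.

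The split between the directions depended on scaling. With arrays scaled to the same median, which moved the median of all probe sets from -0.01 to 0.09, 13 members were higher and 3 lower, and with the deposited intensities 10 were higher and 15 lower. All probe sets tilted the same ways, with 2986 higher and 1144 lower at equal medians and 2218 higher and 2539 lower as deposited. Counts also dropped to 5 higher and 7 lower with the spike-in covariate (background 2172 of 13575 probe sets), and to 3 and 4 with Jnk1 array 2 alone (background 1342 probe sets), where the Jnk1 group is 1 sample assumed to vary like the others.

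**Figure D1:**
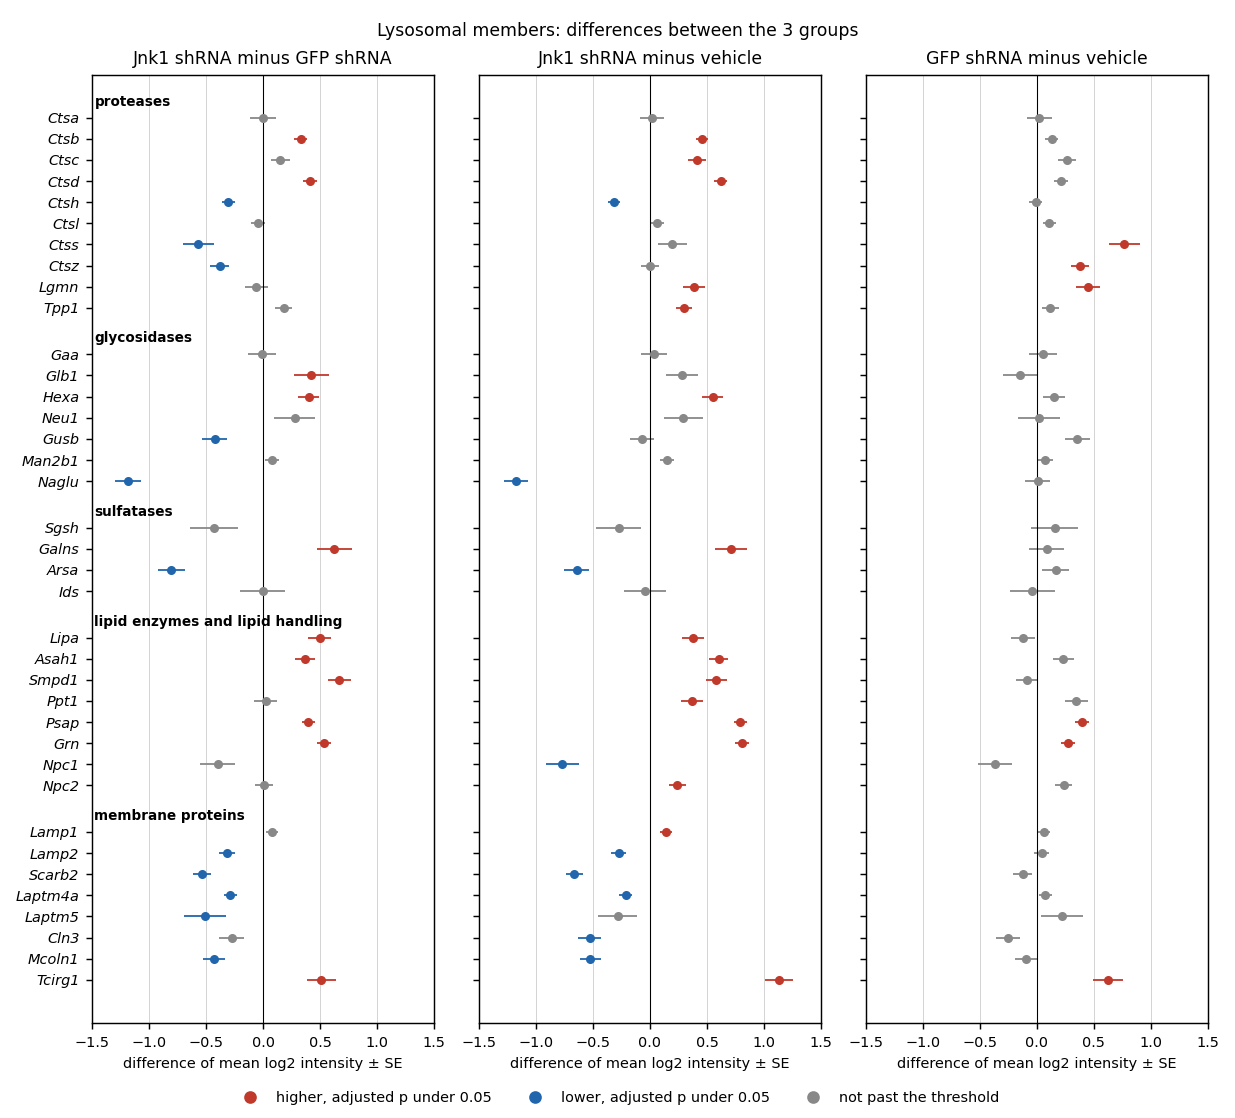
Difference of mean log2 intensity ± SE for each of the 37 members (rows, by class) in the 3 comparisons (panels); red and blue mark members higher and lower at an adjusted p under 0.05. Naglu lies farthest left in both Jnk1 panels (-1.18 in each), and the 6 members that passed in the GFP shRNA panel all lie to the right of 0.

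The proteases divided. Ctsb and Ctsd, a cysteine and an aspartic protease that do much of the bulk degradation of protein, were higher with Jnk1 shRNA, while Ctsh, Ctss and Ctsz were lower than with GFP shRNA. Log2 intensities of Ctsd were 9.92, 9.92, 9.71, 9.76 and 9.80 with vehicle, 10.05, 10.08, 10.00 and 10.00 with GFP shRNA, and 10.46, 10.43, 10.55, 10.43 and 10.34 with Jnk1 shRNA. All 5 Jnk1 arrays lay above every other array. Ctsd rose by 0.41 ± 0.06 (SE, adjusted p = 0.000103) over GFP shRNA. The Ctsb values were 11.27, 11.16, 11.12, 11.10 and 11.16 with vehicle, 11.26, 11.35, 11.27 and 11.29 with GFP shRNA, and 11.76, 11.47, 11.65, 11.58 and 11.64 with Jnk1 shRNA. Here too the Jnk1 arrays were the highest, and the difference from GFP shRNA was 0.33 ± 0.06 (SE, adjusted p = 0.000314). Of the 4 Ctsb probe sets, 3 were higher, but 1 dim probe set read -0.46 (adjusted p = 0.0768) and was lower than with vehicle by 0.58 (adjusted p = 0.0192). The Ctsb call was not made with the deposited scaling (0.14), the spike-in covariate (0.18), Jnk1 array 2 alone (0.18) or the mean of its probe sets (0.19).

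Ctss, a cathepsin of antigen-presenting cells that trims the invariant chain of MHC class II, was highest with GFP shRNA. Its values were 9.32, 8.87, 8.89, 8.74 and 8.63 with vehicle, 9.65, 10.01, 9.39 and 9.60 with GFP shRNA, and 9.18, 9.09, 8.93, 9.27 and 8.98 with Jnk1 shRNA. The GFP arrays lay above both other groups, which overlapped each other. Ctss fell by 0.57 ± 0.14 (SE, adjusted p = 0.00406) from GFP to Jnk1 shRNA, and the difference from vehicle was 0.20 ± 0.13 (SE, adjusted p = 0.246). Ctsz, a carboxypeptidase, had the same order, with means of 10.08 ± 0.12 (SD, n = 5), 10.46 ± 0.06 (n = 4) and 10.08 ± 0.16 (n = 5) in vehicle, GFP and Jnk1 shRNA. Ctsz fell by 0.38 ± 0.08 (SE, adjusted p = 0.00206) between the viruses. Ctsh, an aminopeptidase, fell by 0.31 ± 0.05 (SE, adjusted p = 0.000439), and neither fall was called with arrays scaled to the same median (-0.10 for Ctsh and -0.20 for Ctsz). The falls of Ctss (-0.57) and Ctsz (-0.25) were not called with Jnk1 array 2 alone.

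Lgmn, the asparaginyl endopeptidase that processes cathepsins, and Ctsc, which activates granule serine proteases, were higher with Jnk1 shRNA than with vehicle and did not pass between the viruses. Lgmn also passed for GFP shRNA against vehicle, and Ctsc did not (0.27 (adjusted p = 0.116)). Lgmn read 8.45, 8.55, 8.54, 8.14 and 8.10 with vehicle, 8.91, 8.95, 8.64 and 8.71 with GFP shRNA, and 8.74, 8.75, 8.74, 8.78 and 8.72 with Jnk1 shRNA. The Jnk1 arrays lay within the range of the GFP arrays, and both groups were above all vehicle arrays. Ctsc read 10.43, 10.50, 10.12, 10.30 and 10.27 with vehicle, 10.54, 10.72, 10.58 and 10.53 with GFP shRNA, and 10.75, 10.95, 10.65, 10.76 and 10.60 with Jnk1 shRNA. For Ctsc the Jnk1 arrays lay above the vehicle arrays and overlapped the GFP arrays. Between the viruses Lgmn gave -0.06 (adjusted p = 0.698) and Ctsc 0.15 (adjusted p = 0.186). Tpp1, a tripeptidyl peptidase, gave 0.18 (adjusted p = 0.0792), while its second probe set was lower by 0.46 (adjusted p = 0.0045). Ctsa, the protective protein of neuraminidase and beta-galactosidase, and Ctsl, a cysteine endopeptidase, gave -0.00 and -0.04.

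Among the glycosidases, which remove sugars from glycoproteins, glycolipids and glycosaminoglycans, 2 were higher and 2 lower with Jnk1 than with GFP shRNA. Naglu, which removes N-acetylglucosamine from heparan sulfate, read 6.81, 6.77, 6.51, 6.73 and 6.74 with vehicle, 6.70, 6.88, 6.59 and 6.73 with GFP shRNA, and 5.73, 5.54, 5.59, 5.39 and 5.43 with Jnk1 shRNA. The 5 Jnk1 arrays lay below all 9 others, and the 2 control groups overlapped. Naglu fell by 1.18 ± 0.11 (SE, adjusted p = 1.03e-06) against GFP shRNA and by 1.18 ± 0.10 (SE, adjusted p = 3.19e-07) against vehicle. Over 12 alternative settings the first of these differences ran from -1.28 to -0.96.

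Hexa, the alpha subunit of the hexosaminidase that cleaves GM2 ganglioside, moved the other way. Its values were 8.48, 8.33, 8.24, 8.28 and 8.06 with vehicle, 8.54, 8.29, 8.46 and 8.43 with GFP shRNA, and 8.93, 8.98, 8.87, 8.74 and 8.62 with Jnk1 shRNA. Every Jnk1 array was above every control array, and Hexa rose by 0.40 ± 0.10 (SE, adjusted p = 0.00453) over GFP shRNA, a call not made with the spike-in covariate (0.36) or Jnk1 array 2 alone (0.55). Glb1, the lysosomal beta-galactosidase, read 5.80, 6.24, 6.09, 6.52 and 5.84 with vehicle, 6.05, 6.09, 5.90 and 5.78 with GFP shRNA, and 6.35, 6.47, 6.56, 6.16 and 6.35 with Jnk1 shRNA. The Jnk1 arrays lay above the GFP arrays and overlapped the vehicle arrays, and the rise over GFP shRNA was 0.42 ± 0.15 (SE, adjusted p = 0.0399). Leaving out any 1 of 7 arrays ended this call (GFP 1, 3 or 5, or Jnk1 1, 2, 3 or 5), with an adjusted p of up to 0.109 and differences of 0.37 to 0.48 over all 14 omissions. It was also lost in 5 of 12 alternative settings. Gusb, the beta-glucuronidase, read 6.83, 6.92, 6.67, 6.46 and 6.47 with vehicle, 6.97, 6.99, 7.16 and 6.98 with GFP shRNA, and 6.63, 6.57, 6.49, 6.69 and 6.63 with Jnk1 shRNA. The GFP arrays were the highest for Gusb, which fell by 0.43 ± 0.11 (SE, adjusted p = 0.00707) between the viruses. It was not called with arrays scaled to the same median (-0.29), with the spike-in covariate (-0.50), with Jnk1 array 2 alone (-0.46) or with the mean of its probe sets (-0.35). Gaa, the acid glucosidase of glycogen, Neu1, a neuraminidase, and Man2b1, an alpha-mannosidase, gave -0.01, 0.28 and 0.08 and did not pass.

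Sulfatases release sulfate from glycosaminoglycans and sulfolipids, and 1 of the 4 measured rose and 1 fell. Arsa, which acts on the myelin lipid sulfatide, read 8.15, 7.89, 7.82, 7.89 and 7.77 with vehicle, 7.84, 8.27, 7.96 and 8.21 with GFP shRNA, and 7.54, 7.06, 7.28, 7.17 and 7.27 with Jnk1 shRNA. All Jnk1 arrays were below the other 9. Arsa fell by 0.81 ± 0.12 (SE, adjusted p = 7e-05) against GFP shRNA. Galns, which removes sulfate from keratan and chondroitin sulfate, read 5.13, 5.47, 5.05, 5.49 and 5.29 with vehicle, 5.48, 5.32, 5.39 and 5.30 with GFP shRNA, and 6.19, 5.88, 6.06, 5.69 and 6.17 with Jnk1 shRNA. Its Jnk1 arrays were above all control arrays, with a rise of 0.62 ± 0.15 (SE, adjusted p = 0.0046). That rise was not called with the spike-in covariate (0.54) or Jnk1 array 2 alone (0.51). Sgsh and Ids, which act on heparan sulfate, gave -0.43 (adjusted p = 0.125) and -0.00 (adjusted p = 0.992).

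**Figure D2:**
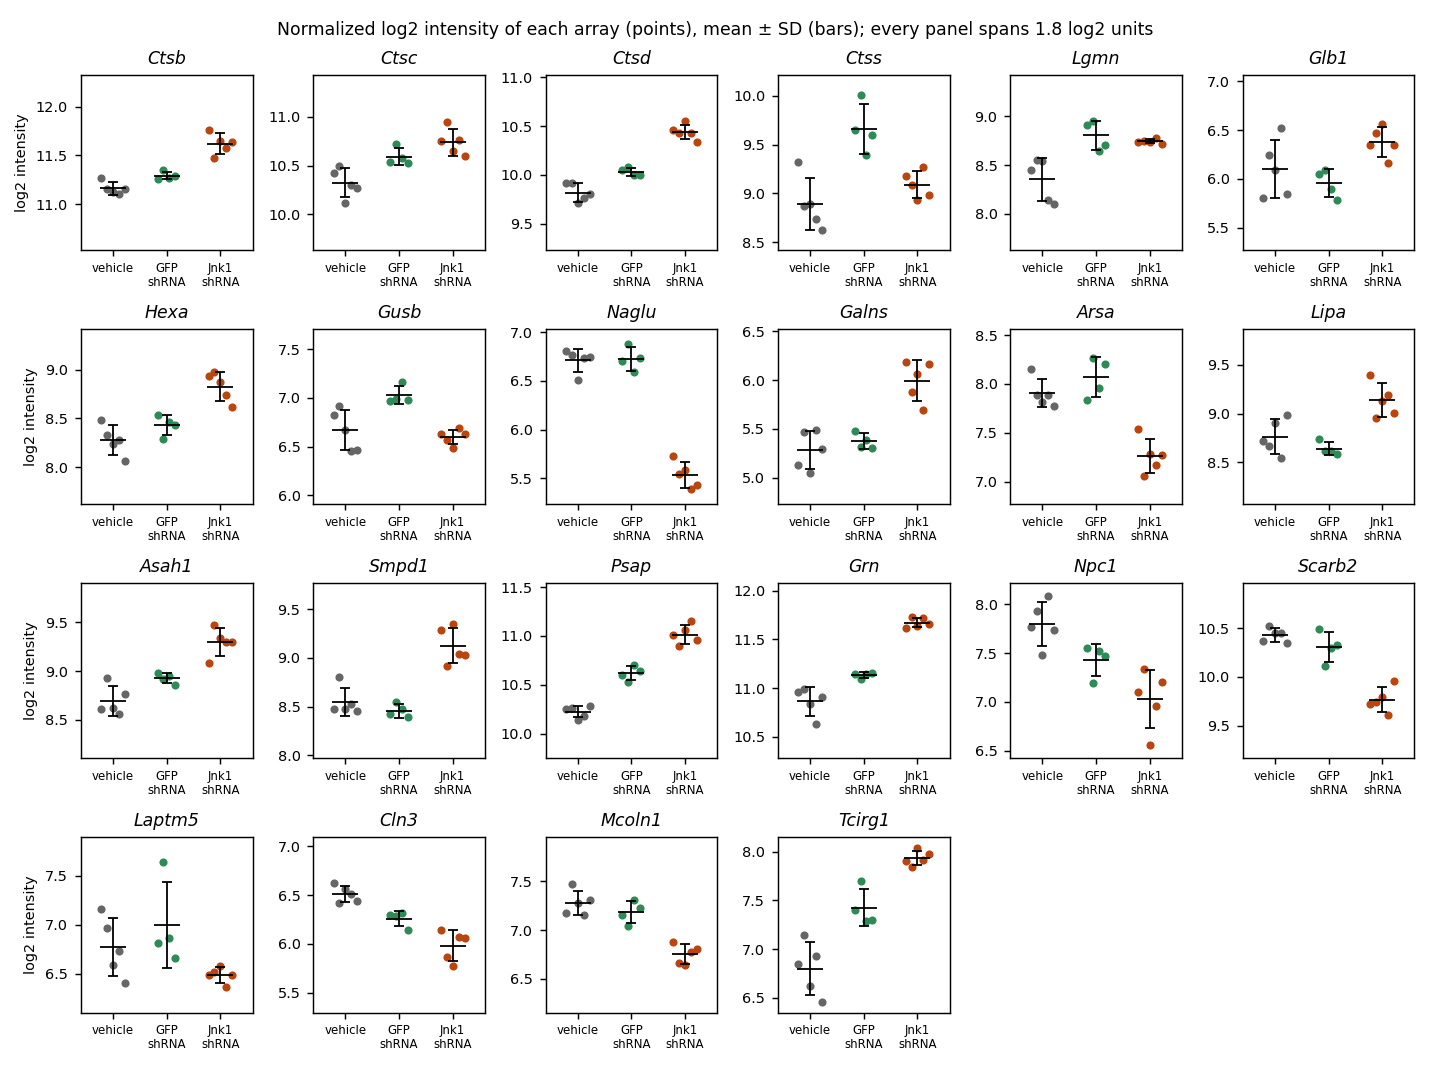
Normalized log2 intensity on each array (points) with group mean ± SD (bars) for 22 members, each panel spanning the same range of log2 units. Naglu and Arsa are lowest on the Jnk1 shRNA arrays, Ctsd and Grn are highest there, and Ctss is highest on the GFP shRNA arrays.

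In the lipid class 5 of 8 members were higher with Jnk1 than with GFP shRNA and 3 did not pass, with a median difference of 0.38. These counts depend on how members were assigned to classes. The class takes in Grn and Ppt1 and leaves out others that act on lipids, such as Hexa, which rose, and Arsa, which fell. In limma, 0 were lower at the adjusted threshold and 1, Npc1, at an unadjusted p under 0.05. Grn, whose protein is cut into granulins in the lysosome, read 10.96, 10.99, 10.84, 10.63 and 10.91 with vehicle, 11.15, 11.09, 11.15 and 11.16 with GFP shRNA, and 11.62, 11.73, 11.64, 11.72 and 11.66 with Jnk1 shRNA. The 3 groups did not overlap and stood in the order vehicle, GFP, Jnk1. Grn rose by 0.53 ± 0.06 (SE, adjusted p = 1.15e-05) between the viruses, and all 3 of its probe sets were higher (0.53 to 0.89). Psap, the precursor of the saposins that present sphingolipids to their hydrolases, read 10.25, 10.26, 10.14, 10.18 and 10.28 with vehicle, 10.60, 10.53, 10.70 and 10.64 with GFP shRNA, and 11.01, 10.90, 11.06, 11.15 and 10.96 with Jnk1 shRNA. These groups were separate in the same order, and Psap rose by 0.40 ± 0.06 (SE, adjusted p = 8.9e-05) over GFP shRNA and by 0.37 (adjusted p = 0.0018) on its second probe set.

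Smpd1 and Asah1, which release and cleave ceramide, were both higher. Smpd1, acid sphingomyelinase, frees ceramide from sphingomyelin. It read 8.47, 8.80, 8.47, 8.53 and 8.45 with vehicle, 8.42, 8.55, 8.47 and 8.39 with GFP shRNA, and 9.29, 8.92, 9.35, 9.04 and 9.03 with Jnk1 shRNA. The Jnk1 arrays were above all others, and Smpd1 rose by 0.67 ± 0.10 (SE, adjusted p = 8.01e-05). Asah1, acid ceramidase, cleaves that ceramide and read 8.61, 8.93, 8.62, 8.56 and 8.77 with vehicle, 8.98, 8.92, 8.95 and 8.86 with GFP shRNA, and 9.08, 9.47, 9.34, 9.30 and 9.30 with Jnk1 shRNA. Jnk1 array 1 was the lowest of its group and still above every control array, and the rise was 0.37 ± 0.09 (SE, adjusted p = 0.0048). Lipa, the acid lipase that frees cholesterol and fatty acids from esters taken up in lipoproteins, read 8.72, 8.67, 8.90, 8.54 and 8.98 with vehicle, 8.74, 8.62, 8.62 and 8.59 with GFP shRNA, and 9.40, 8.95, 9.13, 9.19 and 9.01 with Jnk1 shRNA. The lowest Jnk1 array, at 8.95, lay above all GFP arrays and within the vehicle range. Lipa rose by 0.50 ± 0.10 (SE, adjusted p = 0.00137), which the spike-in covariate (0.20) and Jnk1 array 2 alone (0.31) did not call. Jnk1 array 2 alone also ended the calls of Smpd1 (0.46) and Psap (0.28).

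Npc1 and Npc2 pass free cholesterol out of the lysosome, as a membrane transporter and its soluble partner. Npc1 read 7.77, 7.93, 7.48, 8.08 and 7.74 with vehicle, 7.55, 7.19, 7.52 and 7.47 with GFP shRNA, and 7.10, 7.34, 6.56, 6.96 and 7.20 with Jnk1 shRNA. Jnk1 array 3, at 6.56, was the lowest and Jnk1 arrays 2 and 5, at 7.34 and 7.20, overlapped the GFP group. Npc1 gave -0.40 ± 0.15 (SE, adjusted p = 0.0516) against GFP shRNA and fell by 0.77 ± 0.14 (SE, adjusted p = 0.000448) against vehicle. With the spike-in covariate (-0.51) or Jnk1 array 2 alone (-0.46) the fall against vehicle was not called. The difference from GFP shRNA was called in 4 of 12 alternative settings (-0.43 to -0.40) and without vehicle array 3 or 4, GFP array 2 or Jnk1 array 2 (-0.48 to -0.40). Npc2 gave 0.00 (adjusted p = 0.969) and Ppt1, a thioesterase that strips palmitate from proteins, 0.02 (adjusted p = 0.896) between the viruses.

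Of the 8 membrane proteins measured, 5 were lower with Jnk1 than with GFP shRNA, 1 was higher and 2 did not pass (median -0.30). With arrays scaled to the same median 1 was higher and none of the 5 falls was called, all 5 still negative, and with deposited intensities 6 were lower. Scarb2, the receptor that carries glucocerebrosidase to the lysosome, read 10.37, 10.52, 10.45, 10.45 and 10.35 with vehicle, 10.49, 10.11, 10.30 and 10.33 with GFP shRNA, and 9.72, 9.74, 9.79, 9.61 and 9.96 with Jnk1 shRNA. All Jnk1 arrays were below the other 9. Scarb2 fell by 0.54 ± 0.08 (SE, adjusted p = 8.22e-05), but its second probe set gave 0.03 (adjusted p = 0.8091). Mcoln1, a cation channel that releases lysosomal calcium, read 7.18, 7.47, 7.28, 7.16 and 7.31 with vehicle, 7.15, 7.04, 7.31 and 7.23 with GFP shRNA, and 6.88, 6.66, 6.64, 6.78 and 6.81 with Jnk1 shRNA. The Jnk1 arrays were again the lowest, and Mcoln1 fell by 0.43 ± 0.10 (SE, adjusted p = 0.00283) and on its second probe set by 0.28 (adjusted p = 0.0475).

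Cln3, a membrane protein lost in a childhood neuronal storage disease, read 6.62, 6.42, 6.56, 6.51 and 6.44 with vehicle, 6.29, 6.28, 6.32 and 6.14 with GFP shRNA, and 6.14, 5.86, 5.77, 6.07 and 6.06 with Jnk1 shRNA. Vehicle arrays were highest and Jnk1 arrays lowest, with Jnk1 array 1 touching the lowest GFP array at 6.14. It gave -0.28 ± 0.11 (SE, adjusted p = 0.062) against GFP shRNA and fell by 0.53 ± 0.10 (SE, adjusted p = 0.000663) against vehicle. The first of these was called in 4 of 12 alternative settings (-0.37 to -0.28) and without Jnk1 array 1 (-0.32). Laptm5, a lysosomal protein of blood cells, read 7.16, 6.97, 6.59, 6.73 and 6.40 with vehicle, 6.81, 7.64, 6.86 and 6.66 with GFP shRNA, and 6.49, 6.52, 6.58, 6.36 and 6.49 with Jnk1 shRNA. GFP array 2, at 7.64, was far above the rest of its group. Laptm5 fell by 0.51 ± 0.18 (SE, adjusted p = 0.0431). This call was lost without vehicle array 4, GFP array 2 or 3, or any 1 Jnk1 array, and the difference was -0.29 without GFP array 2.

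Tcirg1, an a-type subunit of the proton pump, was the membrane protein that rose. Its values were 6.85, 7.15, 6.62, 6.93 and 6.46 with vehicle, 7.40, 7.70, 7.29 and 7.30 with GFP shRNA, and 7.90, 7.84, 8.04, 7.91 and 7.98 with Jnk1 shRNA. The 3 groups did not overlap, with vehicle lowest and Jnk1 shRNA highest. Tcirg1 rose by 0.51 ± 0.13 (SE, adjusted p = 0.00611) over GFP shRNA and by 1.13 ± 0.12 (SE, adjusted p = 2.23e-06), or 2.19-fold, over vehicle. The first of these was not called with the spike-in covariate (0.45) or Jnk1 array 2 alone (0.42). Lamp1 and Lamp2, the abundant glycoproteins that line the lysosomal membrane, gave 0.08 (adjusted p = 0.26) and -0.32 (adjusted p = 0.00214) against GFP shRNA. For Lamp2 only 1 of 4 probe sets passed, and the 4 ran from -0.32 to 0.09. The Lamp2 call was lost with the spike-in covariate (-0.13), Jnk1 array 2 alone (-0.11) and the probe set mean (-0.12). Laptm4a, a small membrane protein of late endosomes and lysosomes, fell by 0.29 ± 0.06 (SE, adjusted p = 0.00105), which was not called with the spike-in covariate (-0.16).

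**Figure D3:**
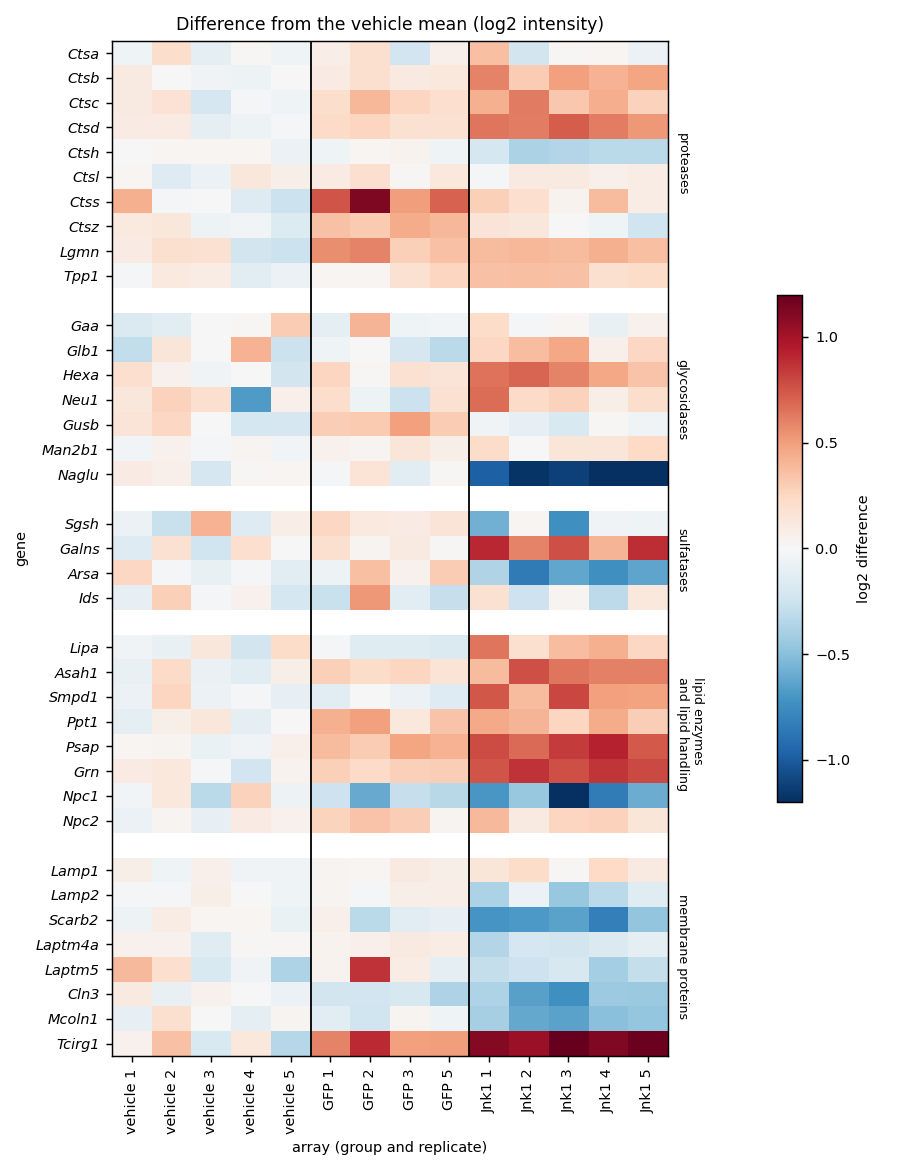
Difference of each array from the vehicle mean (colour, log2 units) for the 37 members (rows, by class) on the 14 arrays (columns). Psap, Grn and Tcirg1 are red on all 5 Jnk1 arrays and Naglu and Scarb2 are blue, while GFP array 2 stands out in Ctss and Laptm5.

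Against vehicle, the Jnk1 shRNA livers had more transcript of most lipid-class members, of several proteases and of Tcirg1, and less of Naglu, Npc1, Arsa and most membrane proteins. These groups differ by the adenovirus as well as by its hairpin, whose parts cannot be told apart in this comparison alone. The control virus is set against vehicle below. In limma 25 of 37 members passed (67.6%), 16 higher and 9 lower, against 37.6% of all probe sets (18.9% higher and 18.7% lower) and 50.8% of the genes at least as bright as the members' lower quartile. The median difference was 0.15, and 22 members (59.5%) had groups that did not overlap, against 27.7% of all probe sets. This comparison shares the Jnk1 arrays with the one above, and the comparison of GFP shRNA with vehicle shares its arrays with both, so none is independent of the others.

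By class, 5 proteases were higher and 1 was lower, 1 glycosidase and 1 sulfatase moved each way, 7 lipid-class members were higher and 1 was lower, and 2 membrane proteins were higher and 5 lower. Ctsd rose by 0.62 ± 0.06 (SE, adjusted p = 5.32e-07), Ctsb by 0.46, Ctsc by 0.41, Lgmn by 0.39 and Tpp1 by 0.30, and Ctsh fell by 0.32. With the mean of the probe sets Tpp1 gave 0.03 (adjusted p = 0.778) and Ctsb 0.16 (adjusted p = 0.181). Hexa rose by 0.55 ± 0.09 (SE, adjusted p = 0.000162) and Galns by 0.71 ± 0.14 (SE, adjusted p = 0.000875). Arsa fell by 0.64 ± 0.11 (SE, adjusted p = 0.000238). In the lipid class, Grn rose by 0.81 ± 0.06 (SE, adjusted p = 4.64e-08) and Psap by 0.79 ± 0.06 (SE, adjusted p = 2.74e-08), with smaller rises of Asah1 (0.60), Smpd1 (0.58), Lipa (0.37), Ppt1 (0.37) and Npc2 (0.24). With the spike-in covariate Lipa gave 0.07 (adjusted p = 0.732), Npc2 0.08 (adjusted p = 0.681), Smpd1 0.35 (adjusted p = 0.0761) and Ppt1 0.26 (adjusted p = 0.25), and none of the 4 was called with Jnk1 array 2 alone.

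Membrane proteins that fell against vehicle were Scarb2 (by 0.66, adjusted p = 3.83e-06), Mcoln1 (by 0.52), Cln3 (by 0.53), Lamp2 (by 0.27) and Laptm4a (by 0.21). With the spike-in covariate Lamp2 and Laptm4a each gave -0.09 and were not called, and the mean of the Lamp2 probe sets gave -0.07. Laptm5 gave -0.28 (adjusted p = 0.216) on its brightest probe set, whereas another of its probe sets was higher than vehicle by 0.70 (adjusted p = 0.0004). The rise of Lamp1, 0.14, turned negative under other scalings (-0.05 with deposited intensities and -0.02 with equal medians) and its call was lost without vehicle array 2, 4 or 5 or Jnk1 array 2 or 4 (then 0.12 to 0.13, adjusted p up to 0.0919). The spike-in covariate and Jnk1 array 2 alone each left 8 members higher and 6 lower, while calls over all probe sets went from 5099 to 2858 and 1919. In 12 alternative settings and with each of 14 arrays left out, 13 of the 25 calls were kept throughout: Ctsc, Ctsd, Ctsh, Hexa, Naglu, Arsa, Asah1, Psap, Grn, Scarb2, Cln3, Mcoln1 and Tcirg1. For the comparison with GFP shRNA the calls kept throughout were those of Ctsd, Naglu, Arsa, Asah1 and Grn, 5 of 22.

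**Figure D4:**
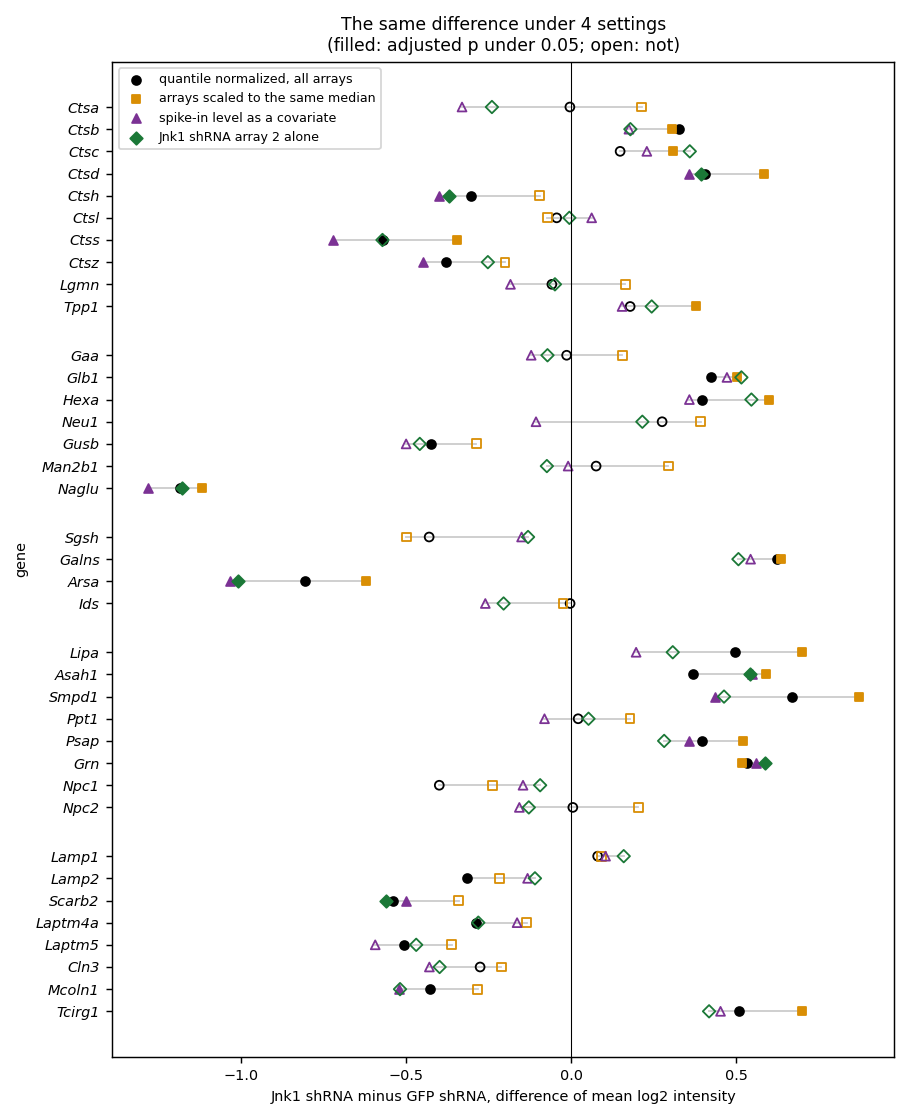
Jnk1 minus GFP shRNA difference of mean log2 intensity of each member under 4 settings (symbols; filled where the adjusted p is under 0.05). Naglu and Arsa stay filled and below 0 and Ctsd, Asah1 and Grn stay filled and above 0, while the 5 membrane proteins that fell lie nearer 0 when arrays are scaled to the same median (squares).

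The control virus itself was set against vehicle. GFP shRNA livers had higher Ctss, Tcirg1, Lgmn, Psap, Ctsz and Grn than vehicle livers, and these 6 of 37 members (16.2%) were the ones that passed in limma, all higher. Over all probe sets 2.58% passed and 2.05% were higher, and among genes at least as bright as the members' lower quartile 3.45% passed. The median member difference was 0.11, against -0.02 over all probe sets. No member was lower at the adjusted threshold, and 2 were at an unadjusted p under 0.05, where 13 were higher. Calls over all probe sets leaned the same way, with 79.4% of them higher, and were not counted at the unadjusted threshold. For 10 members (27.0%) the groups did not overlap, against 6.3% of all probe sets.

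Ctss rose by 0.77 ± 0.14 (SE, adjusted p = 0.00434) and kept its call in all 11 alternative settings and with each array left out. Tcirg1 rose by 0.62 ± 0.13 (SE, adjusted p = 0.0134), Lgmn by 0.45 ± 0.10 (SE, adjusted p = 0.0288) and Psap by 0.40 ± 0.06 (SE, adjusted p = 0.00119). The rise of Ctsz was 0.38 ± 0.08 (SE, adjusted p = 0.0185) and that of Grn 0.27 ± 0.06 (SE, adjusted p = 0.0297). Of their probe sets, all positive, 1 of 3 was called for Ctsz and for Grn, and 1 of 2 for Psap. Laptm5 gave 0.22 (adjusted p = 0.609) on its brightest probe set, but another was higher by 1.09 (adjusted p = 0.0002). The mean of the Laptm5 probe sets gave 0.61 (adjusted p = 0.0039). Arrays whose removal ended a call were vehicle 3 or 5 and GFP 3 or 5 for Ctsz (then 0.34 to 0.37), vehicle 4 or 5 and GFP 1, 2 or 5 for Lgmn (then 0.38 to 0.48), and vehicle 3 or 5 or any GFP array for Grn (then 0.27 to 0.29). With arrays scaled to the same median, which put the median of all probe sets at -0.11, 2 members passed and the median member difference was -0.04. Fits on the 2 groups alone and without the intensity trend left 3 members each, as did leaving out vehicle array 5 or GFP array 5. Of all 13575 probe sets 209, 295, 241 and 198 passed in these settings, in the same order. With equal medians 251 passed, and 350 in the main fit.

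Beside these changes, markers of macrophages and Kupffer cells also moved. Of 22 listed, 21 were on the array and 19 passed the filter. The summed intensity of the 21 was 4037 to 6821 with vehicle, 6589 to 7762 with GFP shRNA and 4127 to 5003 with Jnk1 shRNA. Between the viruses 9 of 19 were lower and 0 higher in limma (13 lower and 0 higher at an unadjusted p under 0.05). With GFP shRNA against vehicle 5 were higher and 2 lower, and with Jnk1 shRNA against vehicle 2 were higher and 5 lower. Over all probe sets 33.1%, 2.58% and 37.6% passed in these 3 comparisons, and 15.8% were lower between the viruses. All probe sets were not counted at the unadjusted threshold. The defining markers Adgre1, Csf1r, Clec4f and Vsig4 were above the floor on every array, with means of 7.80, 9.64, 8.74 and 8.41 with vehicle, 8.13, 10.10, 6.76 and 6.35 with GFP shRNA, and 7.36, 9.38, 6.34 and 5.37 with Jnk1 shRNA.

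The summed macrophage level was lower on every Jnk1 array than on any GFP array, and the vehicle range overlapped both. Ctss, Ctsz and Gusb had their highest means with GFP shRNA. So did Ctsa, Ctsl, Lgmn, Gaa, Naglu, Sgsh, Arsa, Lamp2, Laptm4a and Laptm5, some of them by little. Grn, Psap, Ctsd and Tcirg1 were among those highest with Jnk1 shRNA. The part of macrophages in any member's change was not tested. In whole liver, fewer cells of a type and less RNA per cell cannot be told apart. The 12 hepatocyte markers summed to 52681 to 55781 with vehicle, 52902 to 54842 with GFP shRNA and 49835 to 51464 with Jnk1 shRNA. In limma, with Jnk1 shRNA, 0 were higher and 5 lower than with GFP shRNA, and 0 higher and 7 lower than with vehicle. Over all probe sets 15.8% and 18.7% were lower in these 2 comparisons. With GFP shRNA against vehicle 0 hepatocyte markers were higher and 1 was lower.

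Other genes of the lysosome were read from 5 further lists. Over all probe sets 33.1% passed between the viruses and 37.6% between Jnk1 shRNA and vehicle. Among genes at least as bright as the members' lower quartile these shares were 46.5% and 50.8%. The lists of sorting, autophagy and other membrane proteins did not pass more often than those brighter genes. The other V-ATPase subunits, which pump protons together with Tcirg1, were mainly higher where they passed. Of 15, 8 were higher and 1 was lower than with GFP shRNA (median 0.43), and the same numbers passed against vehicle (median 0.29). Between the viruses Atp6v1e1 rose by 0.82 ± 0.12 (SE, adjusted p = 9.23e-05), Atp6v0e by 0.79, Atp6v1a, the catalytic subunit, by 0.58 and Atp6v1g1 by 0.55. The subunit that fell, named after its value was seen, was Atp6ap1, an accessory protein, by 0.48 ± 0.12 (SE, adjusted p = 0.00458). With the spike-in covariate 6 were higher, and with equal array medians 10. Of all 13575 probe sets 1129 and 2986 were higher between the viruses in these settings, against 2350 in the main fit. Fewer subunits were also called higher with Jnk1 array 2 alone.

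Among 21 other lysosomal hydrolases and their cofactors 9 were higher and 3 lower than with GFP shRNA (median 0.39), and 9 were higher and 2 lower than with vehicle. Dnase2a, which degrades DNA in the lysosome, rose by 1.88 ± 0.16 (SE, adjusted p = 3.49e-07), or 3.67-fold, from a mean of 7.98 ± 0.40 (SD, n = 4) to 9.85 ± 0.17 (n = 5). Gla, alpha-galactosidase A, rose by 1.30 ± 0.14 (SE, adjusted p = 4.78e-06) and Gm2a, the activator that lifts GM2 ganglioside to hexosaminidase, by 0.63 ± 0.08 (SE, adjusted p = 3.73e-05). Sumf1, the enzyme that activates sulfatases, fell by 0.92 ± 0.16 (SE, adjusted p = 0.000429). The count of genes higher than with GFP shRNA was 3 with the spike-in covariate, where 1129 of all 13575 probe sets were higher. Fewer were also called higher with Jnk1 array 2 alone. GFP shRNA against vehicle gave 1 call in the 5 lists, a rise of Gm2a by 0.50 ± 0.08 (SE, adjusted p = 0.00363). Of all probe sets 2.58% passed in that comparison. In limma, at an unadjusted p under 0.05, that comparison had 2 V-ATPase genes higher and 1 lower, and 4 hydrolases higher. At the same threshold 2 other membrane proteins were higher, 1 sorting gene higher, and 1 autophagy gene higher and 3 lower. All probe sets were not counted at that threshold, so these counts have no background beside them.

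Of 23 genes of lysosomal sorting and biogenesis 6 were higher and 4 lower than with GFP shRNA. Ap3m1, a subunit of the adaptor complex that sends membrane proteins to the lysosome, rose by 1.17 ± 0.12 (SE, adjusted p = 2.58e-06). Both mannose 6-phosphate receptors were higher, M6pr by 0.53 and Igf2r by 0.45, and Gnptab, which builds the tag they bind, fell by 0.67 ± 0.16 (SE, adjusted p = 0.00419). Of 20 autophagy genes 4 were higher and 3 lower, with Atg12 up by 1.31 ± 0.15 (SE, adjusted p = 6.46e-06) and Map1lc3a, Atg3 and Gabarapl1 down by 1.07, 0.40 and 0.31. Of 13 other membrane proteins 2 were higher (Glmp, 0.50, and Tmem192, 0.49) and 1 was lower (Laptm4b, -0.35).

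**Figure D5:**
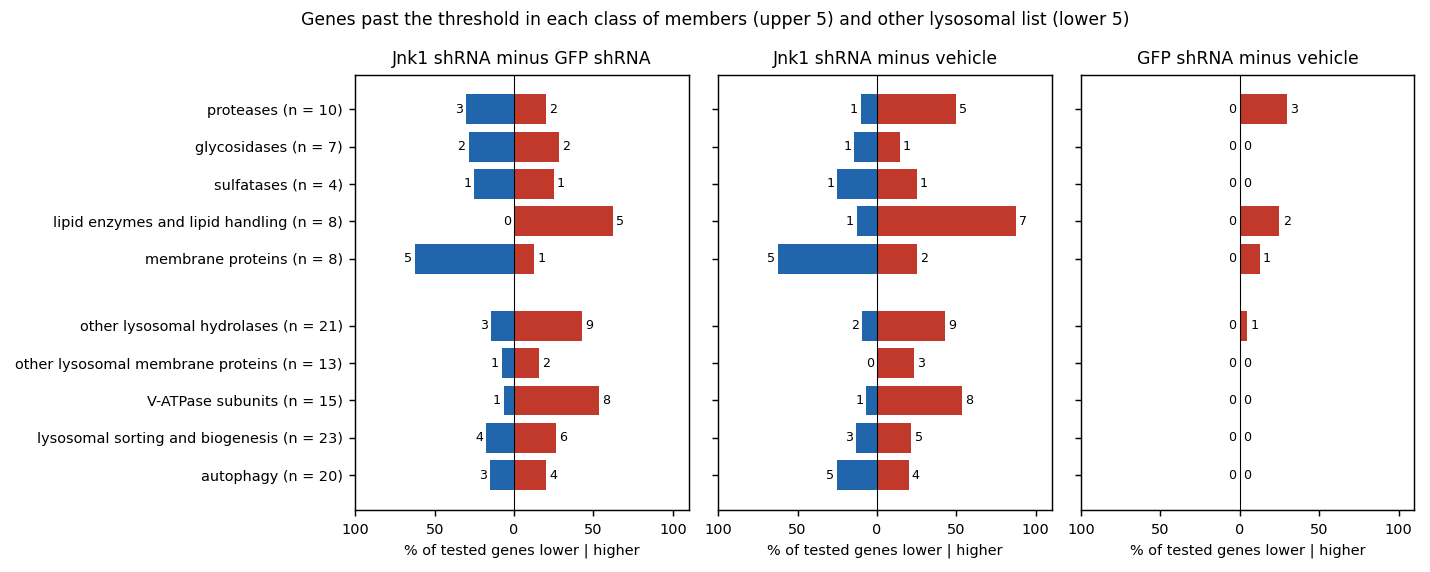
Percent of the tested genes of each list that were higher (red, right) or lower (blue, left) at an adjusted p under 0.05 in the 3 comparisons (panels), with the number of genes at the end of each bar. The lipid class and the V-ATPase subunits have their longer bars on the right in both Jnk1 panels (5 of 8 and 8 of 15 against GFP shRNA), and the membrane proteins have theirs on the left (5 of 8).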

How the data were processed

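The deposited values are linear probe set intensities from 14 one-colour Affymetrix arrays with 22690 probe sets. The software that made them is not given in the sources used here. RNA came from pulverized liver and was labelled with biotin, per the labels' protocols. Because array medians spanned 0.48 log2 units (above 0.2), intensities were quantile normalized, floored at the 5th percentile (2.01) and log2 transformed. The 64 control probe sets and the lowest 40% of the rest were left out, which kept 13575. Gene names came from the platform annotation. limma 3.58.1 in R 4.3.3 fitted 3 group means to all 14 arrays, its variance prior following mean intensity. The Benjamini-Hochberg adjustment ran over all kept probe sets, with calls at 0.05. Array measures were compared by exact permutation tests. The fit was tested on simulated data. Members and lists were chosen with earlier results of these data known. Per-array values were given for members called with an absolute log2 difference of at least 0.4 and groups that did not overlap. From each further list up to 4 genes by p were named with their differences. Backgrounds matched to the members' brightness were added after seeing the data. Alternatives varied scaling, floor, filter, trend, weights, groups fitted, replicate block, spike-in covariate, probe sets and arrays left out.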

Additional observations from a re-analysis of the deposited data

Results flagged for a closer look

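In 8 of the 111 group and member combinations tested, the highest or lowest array stood farther from the rest of its group than Dixon's 95% limit, where chance flags about 1 in 20. GFP array 2 was high for Gaa (7.77, against 7.25 to 7.33 on the other 3) and low for Grn (11.09, against 11.15 to 11.16). GFP array 3 was high for Gusb (7.16, against 6.97 to 6.99). Among vehicle arrays, Ctsh was low on array 5 (9.88, against 9.95 to 9.97) and Neu1 on array 4 (5.88, against 6.62 to 6.84). Vehicle array 3 was low for Naglu (6.51, against 6.73 to 6.81) and Laptm4a (10.67, against 10.83 to 10.87). Vehicle array 2 was high for Smpd1 (8.80, against 8.45 to 8.53).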

How the results depend on the processing

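Between Jnk1 and GFP shRNA, arrays scaled to the same median gave 3 members lower and a median of 0.16. The spike-in covariate gave 5 higher, 7 lower and a median of -0.12, and Jnk1 array 2 alone gave 3 higher and 4 lower. Against vehicle, the spike-in covariate and Jnk1 array 2 alone each gave 8 higher, and Lamp1 became -0.05 with deposited intensities and -0.02 with equal medians. For GFP shRNA against vehicle, equal medians gave 2 higher and a median of -0.04, no intensity trend 3, the 2 groups alone 3, and leaving out each array 3 to 6. Equal medians changed the scale of all probe sets, and array 2 alone left fewer samples. The cause of these shifts was not tested in any setting. Differences not called in either setting were not counted as reversed when their sign changed. After each group's mean was taken out of every probe set, same-numbered samples correlated at -0.10 to 0.08, -0.07 to 0.12 and -0.24 to 0.12 in the 3 comparisons. With 4 or 5 pairs in each, these values cannot show whether the numbers are more than a label. With the replicate number as a block, 10 members were higher and 11 lower, 15 higher and 9 lower, and 4 higher. Of all 13575 probe sets 4101, 4825 and 247 passed with that block, in the same order. No detection calls or reads bound the dim signals, and the number of arrays limits the precision.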

Other observations

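Marker lists of other liver cell types are given as summed intensities, and their part in the members' values was not tested. The sums take in all markers on the array, also those under the filter. Past the filter were 10 of 11 endothelial, 7 of 11 stellate cell and matrix, and 2 of 10 T and NK cell markers. So were 1 of 3 erythroid (Alas2), 3 of 5 B cell and plasma cell, 3 of 8 neutrophil and 0 of 5 cholangiocyte markers. Endothelial markers summed to 1464 to 1521 with vehicle, 1273 to 1547 with GFP shRNA and 967 to 1165 with Jnk1 shRNA. Stellate cell and matrix markers summed to 2095 to 2319, 2271 to 2663 and 1633 to 1790 in the same order. T and NK cell markers summed to 126 to 195, 187 to 358 and 269 to 318, and erythroid markers to 542 to 643, 494 to 650 and 132 to 197. B cell and plasma cell markers summed to 175 to 265, 219 to 281 and 164 to 220, neutrophil markers to 210 to 322, 208 to 321 and 172 to 274, and cholangiocyte markers to 63.7 to 143, 94.6 to 110 and 64.8 to 120.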
